A study of Ailuropoda melanoleuca with 25 samples.

Results

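The 5 kidney libraries of a series of 25 RNA-seq libraries from giant pandas (Ailuropoda melanoleuca) were compared with the 5 libraries each of heart, liver, spleen and lung. Membership followed the tissue given for each library in the labels, so no measured value was used to choose them. Each of 5 captive pandas gave 1 library of each tissue, from pieces put into liquid nitrogen once collected, and a library number names the animal. Panda 1 was a female of age 27 that had ovarian cancer, panda 2 a female of age 9, and pandas 3 and 4 (females) and 5 (male) were of age 0.5 with a coronavirus infection as the cause of death. The labels give these ages without a unit, and they give the cause of death of panda 2 as "ileac pssion". Panda 1, panda 2 and pandas 3 to 5 died in 3 different years. There was no treatment, no healthy control and no repeat library of any piece, so age, disease, year and sampling cannot be told apart within the kidney group. Which zone of the kidney was cut, cortex or medulla, is not given in the labels.

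The kidney filters blood through the glomerulus, whose podocytes hold back protein, and then recovers most of the filtrate along the tubule. The proximal tubule takes back glucose, phosphate, amino acids and small proteins, the thick ascending limb drives the salt gradient and makes uromodulin, and the distal tubule and collecting duct set the final handling of salt, calcium, acid and water. It is also an endocrine organ that controls active vitamin D. Several of its metabolic enzymes are shared with the liver.

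Values are FPKM, that is, fragments per kilobase of gene and scaled to the fragments counted in the library, and a difference is given on the log2(FPKM + 1) scale as kidney minus the other tissue, with its standard error (SE). The DEGs (differentially expressed genes) of a comparison are those with a difference beyond 2 in either direction and a limma p under 0.05 after Benjamini-Hochberg adjustment. Genes whose mean exceeded 1 FPKM in either tissue of the pair were tested. The added 1 makes a difference understate the change of a low gene. Gene names were available for 1778 of 25376 genes, all of them from the list of tissue DEGs that the study picked on these same libraries. A high share of named kidney genes called higher in kidney is therefore not independent evidence of direction. A gene near 0 elsewhere entered a comparison only through its kidney mean, so the counts and medians of gene lists below are descriptions.

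The 3 genes used to check the tissue label were high in every kidney library. FXYD2, the gamma subunit of the sodium pump, was measured at 7068, 9225, 10438, 948 and 7338 FPKM in kidney 1 to kidney 5. Its highest value among the 20 other libraries was 8.98, in liver 5. SLC22A8, an organic anion transporter of the proximal tubule, had 321, 298, 197, 40.3 and 316 FPKM, against at most 0.325 elsewhere. UMOD, which encodes uromodulin, had 783, 248, 1217, 15.4 and 361 FPKM, against at most 0.527. No kidney library overlapped the other tissues for any of these genes, and kidney 4 was the lowest of the 5 each time. FXYD2 exceeded the other tissues by 10.11 (SE 0.59) against liver to 11.28 (SE 0.58) against heart, with limma adjusted p from 6.77e-09 to 1.27e-07.

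Kidney 4, from one of the pandas of age 0.5, stood apart from the other 4 kidneys. Among 8122 genes with a kidney mean above 10 FPKM, 825 were more than 2 log2 units below the median of the other 4 kidneys in that library and 249 were more than 2 above it, while the other kidneys had 14 to 59 below and 20 to 63 above. Across genes its correlation with the other kidneys was 0.718 to 0.81, and theirs with each other 0.859 to 0.948. Its depth, 16222940 recovered reads, lay inside the kidney range of 13982822 to 17336596. Summed marker lists of the other 4 tissues did not exceed the range of the other kidneys in it. Hepatocyte markers summed to 394 FPKM in kidney 4 against 301 to 943 over the 5 kidneys, cardiomyocyte markers 81.6 against 68.7 to 135, and lung epithelium and B cell markers had their lowest kidney sums there, 42.7 and 33.0. Summed T and NK cell markers were 20.4 against 9.55 to 30.4. Medians were also taken over the genes with a kidney mean above 1 FPKM, 5 of 17 T and NK cell markers and 9 of 21 cardiomyocyte markers. By these, however, T and NK cell genes were 0.84 above the other 4 kidneys on the log2 scale, highest of the 5 libraries. Cardiomyocyte genes were 0.55 above, second to 0.60 in kidney 5, while all genes lay at -0.53. Their part in the results below was not tested. In tissue pieces, fewer cells of a type and less RNA per cell cannot be told apart. Counts of list members higher in kidney than in all other tissues are given below with and without kidney 4. A gene's value without it is given where the call of a difference reported here changed. Of 265 differences of named genes, 255 kept their call and sign without it, 6 became called, 2 lost their call and 2 that were never called changed sign.

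**Figure D1:**
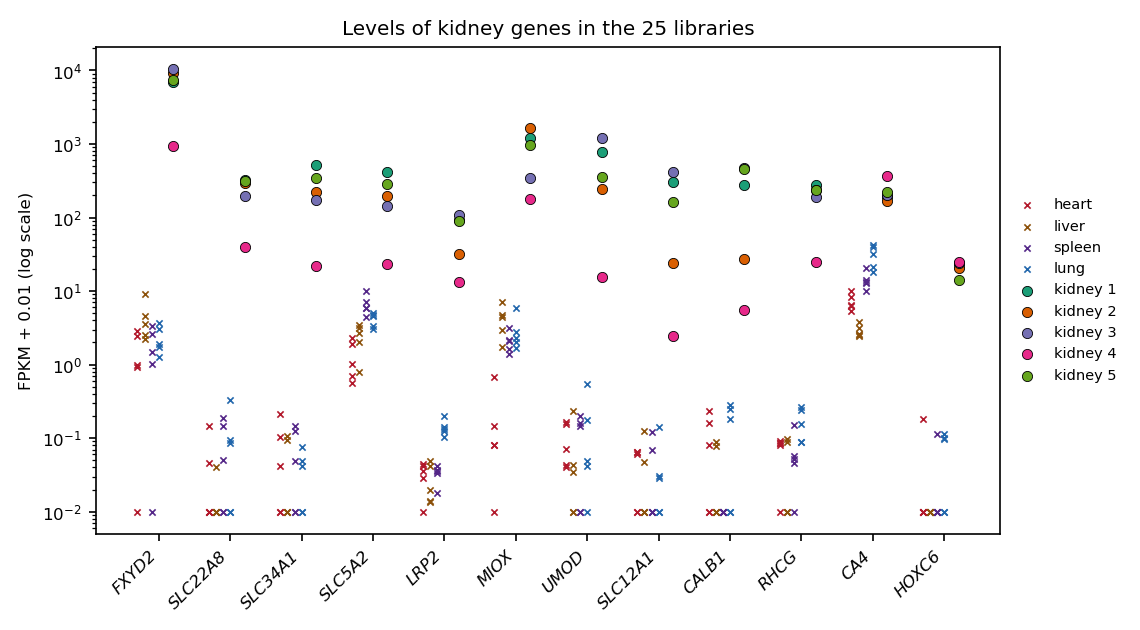
FPKM + 0.01 on a log axis for 12 genes in all 25 libraries, with crosses for the libraries of the 4 other tissues and filled circles for kidney 1 to kidney 5; points at the bottom are libraries listed at 0. Kidney 4 is the lowest kidney for most of the genes, at 948 FPKM for FXYD2 and 15.4 for UMOD, but it is the highest for CA4, at 368.

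More genes were higher than lower in kidney against heart and liver, and fewer against spleen and lung. Against heart, 1945 of 15831 genes were higher (12.3%) and 485 lower (3.06%). Against liver, 1839 of 15755 were higher (11.7%) and 371 lower (2.35%). Spleen gave 1066 higher (6.25%) and 1374 lower (8.06%) of 17049, and lung 839 higher (4.88%) and 1264 lower (7.36%) of 17177. The median difference over all genes tested was itself 0.76 against heart, 0.89 against liver, -0.41 against spleen and -0.43 against lung, and the group medians below should be read against these. Of all calls, 80.0%, 83.2%, 43.7% and 39.9% were higher in kidney in the order heart, liver, spleen and lung. Under quantile normalization these shares were 56.9%, 53.9%, 53.7% and 53.9%, and with TMM factors 58.7%, 54.6%, 57.2% and 60.3%, so the balance between higher and lower depended on the scaling between libraries. Without kidney 4 the calls were 2315 higher and 502 lower against heart, 2236 and 364 against liver, 1291 and 1423 against spleen, and 1056 and 1343 against lung.

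A gene higher in kidney in all 4 comparisons was called kidney-high. There were 363 such genes of 15185 tested in all 4 (2.39%), and 498 without kidney 4, of which 353 were among the 363. The 4 comparisons share the same 5 kidney libraries. By annotation, 227 of the 363 had a name, 69 were transcripts assembled by the study and 67 were Ensembl genes without a name here. In 244 of them every kidney library exceeded all 20 other libraries, and in 347 this held for the 4 kidneys other than kidney 4. The 363 were chosen as higher in these same libraries, and the share over all tested genes was not counted. These overlap counts are therefore descriptions. Kidney 4 had the lowest kidney value in 323 of the 363 (89.0%), compared with 3996 of the 8122 genes above 10 FPKM (49.2%). The median of the smallest of a gene's 4 differences was 2.92 among the 363.

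Transporters of the proximal tubule were the largest tubule group described. Of 39 listed, 31 had an identifier, and 27 of these were kidney-high with and without kidney 4. They were higher in 31 of 31 cases against heart, 29 against liver, 28 against spleen and 30 against lung, with median differences of 5.60, 5.37, 5.22 and 4.91. Under quantile normalization or TMM factors, the number of kidney-high members of this list and of each list below changed by at most 2, and no list median changed sign. Other settings moved these counts more. In pandas 3 to 5 only, 23 of these transporters, 4 thick ascending limb genes, 13 HOX genes and 6 other transcription factors were kidney-high. With all 5 pandas the counts were 27, 8, 17 and 10. With a pseudocount of 0.1 the last count rose to 14. SLC34A1, the sodium-phosphate cotransporter, was at 512, 225, 174, 22.1 and 341 FPKM in kidney 1 to 5 and at most 0.205 elsewhere. SLC5A2, the glucose carrier SGLT2 of the early proximal tubule, was at 422, 197, 141, 23.0 and 289 FPKM, against 0.558 to 9.94 in the other libraries. Neither gene overlapped the other tissues in any kidney. SLC5A2 differed by 4.37 (SE 0.60, limma adjusted p = 7.86e-05) from spleen, where its mean was 6.62 ± 2.08 (SD, n = 5), and by 6.13 (SE 0.61) from heart.

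The remaining transporters included lactate, organic anion and amino acid carriers. SLC5A12, a lactate carrier, had 265, 279, 341, 54.5 and 298 FPKM, and the highest other library had 2.24. AQP1, the water channel of the proximal tubule and descending limb, was at 1593, 932, 2089, 273 and 1438 FPKM. AQP1 is also made by endothelium and red cells, and it reached 392 FPKM in lung 1, so kidney 4 overlapped lung while the other 4 kidneys did not. Its difference was 2.48 (SE 0.55, limma adjusted p = 0.00273) against lung and 2.96 without kidney 4. The 4 transporters that were not kidney-high were SLC7A7, SLC9A3, SLC38A3 and ABCC2. SLC38A3, a glutamine carrier shared with liver, was at 75.9 ± 38.0 FPKM in kidney and 222 ± 128 in liver (SD, n = 5 each), a difference of -1.48 (SE 0.60, limma adjusted p = 0.0561) that became -2.66 and was called with TMM factors. ABCC2, an export pump also found in bile canaliculi, was lower in kidney than in liver by the fit, at -2.35 (SE 0.74, adjusted p = 0.0199), but at -1.97 without kidney 4 it no longer passed.

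Receptors that take filtered protein out of the tubular fluid were likewise lowest in kidney 4. Of 6 listed, 5 were identified and 4 were kidney-high, with the same count without kidney 4. LRP2, which encodes megalin, was at 91.4, 32.2, 108, 13.5 and 88.9 FPKM, and its partner CUBN (cubilin) was at 60.3, 29.2, 60.7, 8.84 and 61.1 FPKM. For both genes kidney 4 was lowest and kidney 2 next, and the highest of the other 20 libraries reached 0.189 for LRP2 and 0.904 for CUBN.

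Enzymes of the proximal tubule split by whether the liver also makes them. Of 29 listed, 19 were identified and 10 were kidney-high (11 without kidney 4). All 19 were higher than in heart and in lung and 18 than in spleen, with medians of 5.30, 4.60 and 4.76, but against liver 10 were higher and 5 lower, with a median of 2.80. The liver split depended on the scaling, with 9 higher and 8 lower (median 1.86) under TMM factors and 9 and 6 (median 1.69) under quantile normalization, and without kidney 4 it was 11 and 4 (median 3.27). MIOX, which opens the ring of myo-inositol, was at 1192, 1675, 340, 178 and 968 FPKM. The highest other library for MIOX was liver 3 at 7.02, and its smallest difference was 7.07 (SE 0.57, limma adjusted p = 1.92e-06), against liver. HOGA1, a mitochondrial enzyme of hydroxyproline breakdown, was at 700, 758, 522, 112 and 556 FPKM in kidney and 13.8 to 82.5 in liver. No kidney library overlapped liver for either gene.

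The 5 enzymes called lower than in liver belong to amino acid and one-carbon metabolism. BHMT, which remethylates homocysteine with betaine, was at 133, 564, 82.0, 107 and 140 FPKM, with kidney 2 the highest and above the lowest liver value of 495. BHMT differed from liver by -2.68 (SE 0.56, limma adjusted p = 0.00232) and from heart by 6.98 (SE 0.45). AMDHD1, an enzyme of histidine breakdown, had 58.7, 41.7, 51.9, 12.7 and 61.1 FPKM in kidney and 322 to 1155 in liver, a difference of -3.85 (SE 0.50, adjusted p = 9.61e-05). AGMAT, HGD and SHMT1 were also lower than in liver, by -2.73, -2.93 and -2.1, and SHMT1 lost its call without kidney 4, liver 2 or liver 4, at -1.77 to -1.80. These 5 genes were higher in kidney than in heart and lung, although AGMAT lost its lung call without any one of lung 2, lung 4, kidney 1, kidney 2 or kidney 3, at 1.88 to 1.99.

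**Figure D2:**
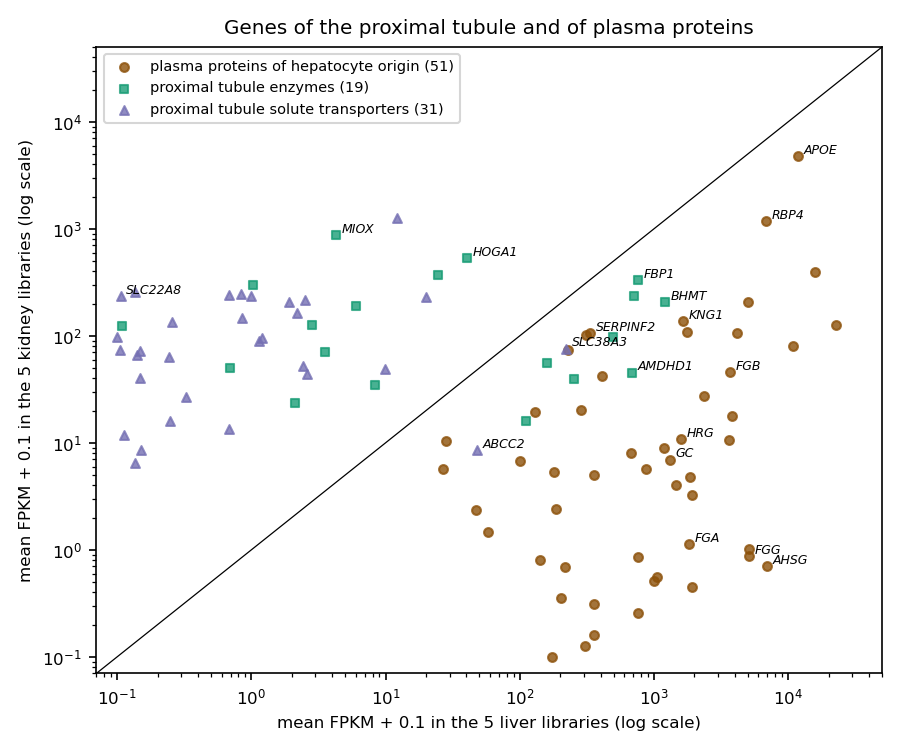
Mean FPKM + 0.1 of 5 kidney libraries against the mean of 5 liver libraries, both on log axes, for 31 proximal tubule transporters (triangles), 19 proximal tubule enzymes (squares) and 51 plasma proteins made by hepatocytes (circles); the line marks equal means. MIOX and HOGA1 lie above the line, BHMT and AMDHD1 below it, and the plasma proteins all lie below it, among them FGG at 0.777 FPKM in kidney and APOE at 4746.

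The thick ascending limb gave the widest spread between kidneys. Of 13 listed genes 9 were identified, and 8 were kidney-high with and without kidney 4. SLC12A1, the furosemide-sensitive salt cotransporter, was at 304, 24.1, 415, 2.47 and 161 FPKM, and no other library exceeded 0.132. CLDN16, a tight junction protein for magnesium and calcium, was at 28.5, 0.446, 40.2, 0 and 20.5 FPKM. It was listed at 0 in every library of heart, spleen and lung, so kidney 4 was no higher than those, while kidney 2 at 0.446 still lay above the highest liver value of 0.178. CLDN16 differed from liver by 2.98 (SE 0.92, limma adjusted p = 0.0183), and by 3.74 (adjusted p = 0.00242) without kidney 4, but by 2.40 (adjusted p = 0.0505), which was not called, without kidney 3. That call was also lost under quantile normalization, at 2.52 (adjusted p = 0.0528), and the lung call by limma-voom on recovered reads (adjusted p = 0.0601). CLDN19, with which it pairs, was at 64.7, 22.8, 98.8, 1.1 and 25.9 FPKM. In pandas 3 to 5 only, CLDN16 lost its calls against heart, liver, spleen and lung (limma adjusted p = 0.0698 to 0.0923). CLDN19 then lost its calls against liver and lung (limma adjusted p = 0.0665 and 0.0566). The median of the 9 genes relative to the other 4 kidneys was 1.37 in kidney 1, -1.1 in kidney 2, 1.98 in kidney 3, -4.32 in kidney 4 and -0.10 in kidney 5 on the log2 scale, where all genes above 1 FPKM had medians between -0.53 and 0.34. Kidneys 1 and 3 were thus high, kidney 2 low and kidney 4 lowest. PTGER3, a prostaglandin E receptor, was the member that was not kidney-high, and at 3.07 FPKM in kidney 4 it was not low there.

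Genes of the distal convoluted and connecting tubule were 12 of 17 identified, with 10 kidney-high and 11 without kidney 4. SLC12A3, the thiazide-sensitive cotransporter, was at 262, 151, 182, 17.9 and 159 FPKM, with at most 3.16 elsewhere, in heart 5. CALB1, a calcium-binding protein of the same segment, was at 281, 27.0, 477, 5.55 and 451 FPKM and at most 0.276 elsewhere. For CALB1 kidney 2 sat with kidney 4 well below the other 3, while for SLC12A3 kidney 2 did not. TRPV5, the apical calcium channel, was at 5.38, 0.731, 4.28, 0.112 and 4.35 FPKM, and every kidney lay above the 20 other libraries, which reached 0.086. Its differences of 1.66 to 1.69 fell short of the threshold and became 2.04 to 2.07, and were called, without kidney 4. With all 5 kidneys TRPV5 was called against liver and lung with a pseudocount of 0.1, at 4.17 and 3.92, and by limma-voom on recovered reads, at 7.01 and 5.74.

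The calcium, phosphate and vitamin D axis crosses these segments. Of 16 listed genes 12 were identified, and 11 were kidney-high (12 without kidney 4). CYP24A1, which inactivates vitamin D, was at 217, 60.0, 84.1, 18.3 and 232 FPKM and at most 0.177 elsewhere. KL, the FGF23 co-receptor klotho, was at 84.7, 35.4, 122, 13.7 and 95.8 FPKM and at most 0.381 elsewhere. Neither overlapped another tissue. VDR, the vitamin D receptor, was at 124, 101, 71.2, 16.4 and 61.6 FPKM and came closer to lung, where it reached 15.3 in lung 1, with a difference of 3.14 (SE 0.50, limma adjusted p = 0.000288).

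Of 21 listed intercalated cell genes, which secrete acid or base in the collecting duct, 16 were identified. All 16 were higher than in heart, liver and spleen and 14 than in lung, so 14 were kidney-high, and 16 without kidney 4. RHCG, an ammonia channel, was at 279, 235, 193, 24.5 and 236 FPKM, and no other library passed 0.259. SLC4A9, an anion exchanger of the base-secreting cells, was at 306, 81.5, 265, 11.9 and 221 FPKM, with at most 1.73 elsewhere. FOXI1, the transcription factor of these cells, was at 29.6, 21.8, 17.7, 3.25 and 17.7 FPKM and at most 0.12 elsewhere. The 5 kidneys lay above all other libraries for these 3 genes.

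In the wider set of carbonic anhydrases and acid transporters, 15 of 16 were identified and 13 were kidney-high (14 without kidney 4). CA4, the membrane carbonic anhydrase of the proximal tubule and of lung capillaries, was an exception to the order of the kidneys. Its values were 192, 167, 205, 368 and 224 FPKM, highest in kidney 4, against 18.3 to 42.1 in lung, and it differed from lung by 2.89 (SE 0.29, limma adjusted p = 7.65e-06). SLC4A4, the basolateral bicarbonate exit of the proximal tubule, was at 38.0, 25, 111, 25.1 and 59.6 FPKM, so kidney 4 was level with kidney 2. CA2, the cytosolic enzyme, followed the usual order with 470, 322, 389, 71.7 and 533 FPKM.

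Principal cells and the water balance genes were less completely named. Of 14 principal cell genes 6 were identified and 5 were kidney-high, with and without kidney 4. AQP4, a basolateral water channel in rodent principal cells, was the exception, at 0 in 3 kidneys and at most 0.127 FPKM, against 20.3 ± 9.09 in lung (SD, n = 5), a difference of -4.21 (SE 0.36, limma adjusted p = 1.77e-06). AVPR2, the vasopressin receptor, was at 18.6, 2.44, 4.90, 0.942 and 6.66 FPKM, and the other libraries reached 0.381. Without kidney 1 its differences from heart, spleen and lung were 1.83, 1.9 and 1.96, and no longer called, and the heart call was also lost under quantile normalization and TMM factors, at 1.83 and 1.98. Among 17 genes of the vasopressin and water balance list, which also holds genes of the angiotensin system, 13 were identified and 7 were kidney-high (8 without kidney 4). AGT, the precursor of angiotensin, had a different order from AVPR2: 4.28, 17.0, 0.818, 38.3 and 2.04 FPKM, highest in kidney 4, and it was lower than in liver by -6.20 (SE 1.13, limma adjusted p = 0.00102) and than in lung by -2.42 (SE 0.70, adjusted p = 0.0127). The lung call was lost without kidney 3, at -1.92, and under quantile normalization and TMM factors, at -2.11 and -1.83.

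Only 4 of 12 podocyte genes were identified. NPHS1, nephrin of the slit diaphragm, was at 45.5, 11.5, 14.1, 0.701 and 31.5 FPKM, and kidney 4 overlapped spleen, which reached 2.28. NPHS1 was kidney-high. LMX1B and CRB2 were not, although both became so without kidney 4 and with a pseudocount of 0.1, and limma-voom made 3 of the 4 genes kidney-high. Without kidney 4 the difference of LMX1B from liver was 2.11 and was called. The podocyte median relative to the other kidneys was 1.80 in kidney 1, 1.16 in kidney 5, -0.86 in kidney 3 and -3.00 in kidney 4. The order of kidneys 1, 3 and 5 therefore differed between podocyte genes and thick ascending limb genes, for which kidney 3 was highest.

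**Figure D3:**
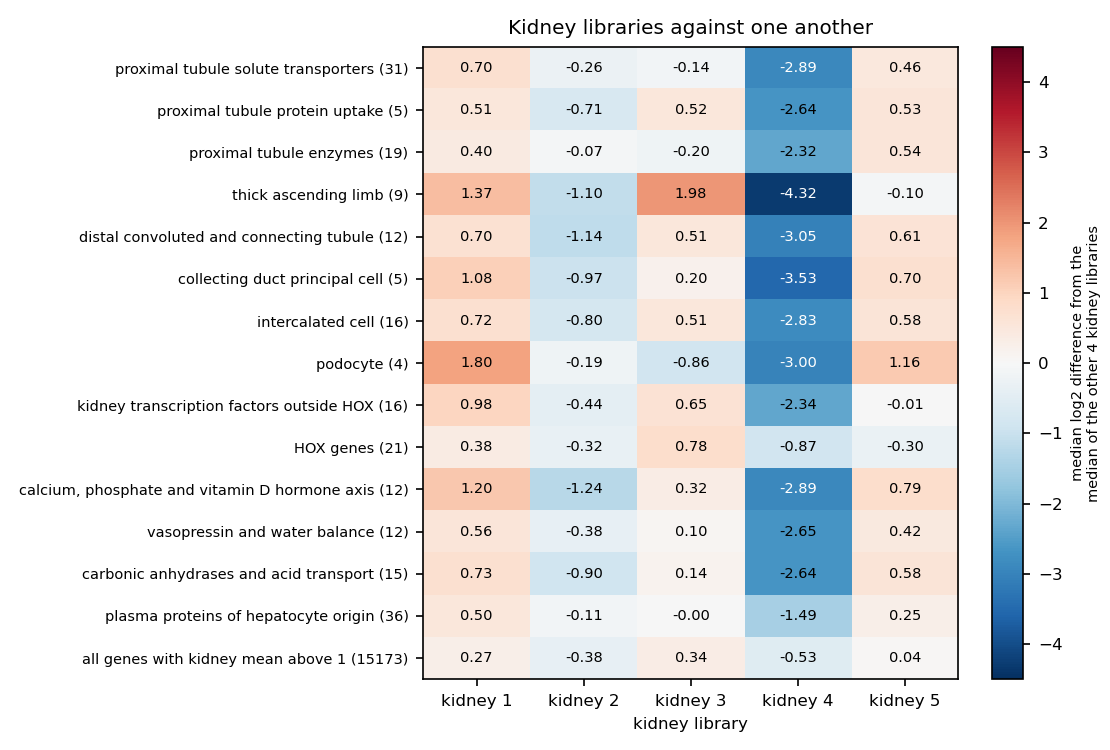
Median log2(FPKM + 1) difference of each gene list (rows, with the number of genes) in each kidney library (columns) from the median of the other 4 kidneys, with red above and blue below 0. Kidney 4 is below 0 in every row, from -4.32 for the thick ascending limb to -0.87 for HOX genes and -0.53 for all genes, and kidney 2 is also below 0 in every row, down to -1.24 for the calcium axis.

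Transcription factors that pattern the nephron were higher in kidney at lower levels. Of 28 listed outside the HOX family 16 were identified, and 10 were kidney-high (14 without kidney 4). PAX8 was at 126, 92.4, 93.2, 14.7 and 86.1 FPKM and at most 0.356 elsewhere, and its relative PAX2 at 24, 9.16, 20.3, 0.975 and 8.28 FPKM and at most 0.0386. POU3F3, a factor of the distal nephron, was at 33.1, 12, 39.1, 1.39 and 13.7 FPKM and was listed at 0 in all 20 other libraries. OSR1, an early factor of the nephric lineage, was lower than in lung by -2.14 (SE 0.43, limma adjusted p = 0.00147), at 1.41 ± 0.498 FPKM in kidney and 11.3 ± 7.17 in lung (SD, n = 5 each). That call was lost without lung 1 or lung 5, at -1.91 and -1.92, and under quantile normalization or TMM factors, at -1.63 and -1.61.

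HOX genes set position along the body axis, and 21 of 39 were identified. Of these 17 were kidney-high (19 without kidney 4), and the medians of the 21 were 3.37 against heart, 3.38 against liver, 2.97 against spleen and 2.76 against lung. HOXC6 was at 23.4, 20.8, 24.1, 24.5 and 14.1 FPKM, highest in kidney 4, and at most 0.171 elsewhere. HOXC8 was likewise not low in kidney 4, with 7.95, 5.86, 9.11, 8.54 and 4.07 FPKM. Kidney 4 was, however, the lowest kidney for 15 of the 21. HOXD1 was among these, at 30.2, 3.35, 24.9, 0.386 and 19.3 FPKM, with kidneys 2 and 4 lowest. HOX genes as a list were the nearest of the kidney lists to the rest of the transcriptome in kidney 4, with a median of -0.87 beside -0.53 for all genes.

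**Figure D4:**
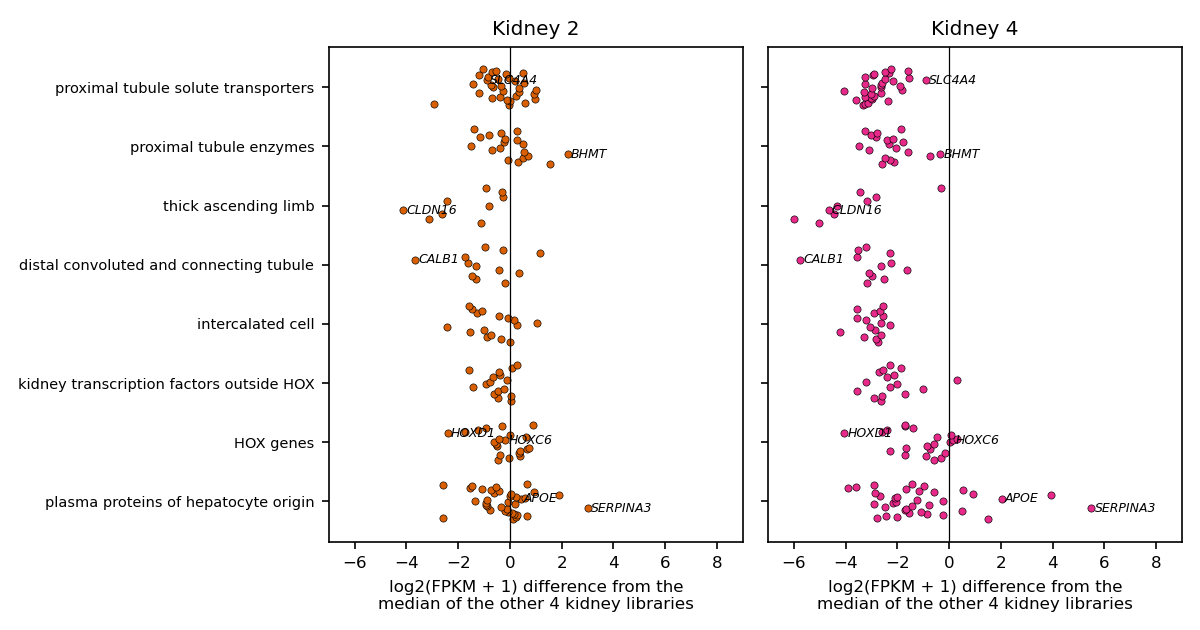
Each point is a gene of one of 8 lists (rows); the horizontal axis is its log2(FPKM + 1) difference from the median of the other 4 kidneys, in kidney 2 (left) and kidney 4 (right), with some genes named. In kidney 4 nearly the whole of each tubule list lies left of 0, HOXC6 and BHMT lie near 0, and APOE and SERPINA3 lie to the right.

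Genes that set single kidneys apart were not all tubule genes. In kidney 4, SERPINA3, an acute phase protease inhibitor, was at 434 FPKM, compared with 11.4, 77.6, 1.52 and 6.48 in kidneys 1, 2, 3 and 5. APOE, an apolipoprotein, was at 12018 against 1819 to 3916. DGAT2, which makes triglyceride, was at 528, 218, 12.2, 1270 and 107 FPKM, highest in kidney 4 and lowest in kidney 3. NNMT, a methyltransferase of nicotinamide, was high in kidneys 2 and 4, at 691 and 792 FPKM, and between 43.5 and 64.6 in the others. DES, an intermediate filament of muscle, was at 91.7 FPKM in kidney 2 and 1.52 to 9.62 in the other kidneys. SPP1, osteopontin, was at 6948, 656, 6912, 512 and 8697 FPKM, low in kidneys 2 and 4, where it overlapped lung 4 at 726, and it was kidney-high with its smallest difference of 3.07 (SE 0.77, limma adjusted p = 0.00582) against lung.

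Plasma proteins that hepatocytes make contrasted sharply between tissues. Of 54 listed, 51 were identified and tested against liver, where none was higher in kidney and 47 were lower, with a median of -6.67. Against the other tissues fewer passed the filter: 21 of 36 were higher than in heart, 15 of 40 than in spleen and 14 of 39 than in lung, with none lower than in heart, 5 lower than in spleen and 5 lower than in lung. Without kidney 4, 44 were lower than in liver, and 21, 16 and 16 were higher than in heart, spleen and lung. There were 14 higher than in heart, spleen and lung together, and 12 of these were also lower than in liver. Summed hepatocyte markers were 301 to 943 FPKM in kidney, 30.1 to 149 in heart, 665 to 1477 in spleen, 3595 to 5597 in lung and 84276 to 116188 in liver, so they were higher in kidney than in heart but not than in spleen or lung, and their part in these counts was not tested.

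Members of one protein complex differed from each other in kidney. FGB, the beta chain of fibrinogen, was at 40.3, 45.3, 40.9, 23.3 and 77.7 FPKM and at most 1.08 in heart, spleen and lung, with a difference of 4.97 (SE 0.35, limma adjusted p = 3.9e-07) from lung. FGA and FGG, the alpha and gamma chains, were at 1.02 ± 0.361 and 0.777 ± 0.506 FPKM in kidney (SD, n = 5 each). All 3 were high in liver, where FGB was at 3697 ± 3547, FGA at 1826 ± 1424 and FGG at 5079 ± 4376 FPKM (SD, n = 5 each). For FGB the liver SD was nearly as large as the mean, while the 5 kidneys stayed within 23.3 to 77.7 FPKM.

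RBP4, the plasma carrier of retinol, had the highest kidney mean of the 14, 1171 ± 544 FPKM (SD, n = 5). It was at 1312, 1950, 504, 842 and 1247 FPKM in kidney, 1741 to 9741 in liver and 58.5 to 79.0 in lung. Its difference was -2.48 (SE 0.49, limma adjusted p = 0.00176) against liver and 3.97 (SE 0.31, adjusted p = 1.04e-06) against lung. KNG1, kininogen, was at 118, 181, 245, 26.3 and 112 FPKM in kidney and 11.6 to 22.9 in lung. Against liver KNG1 was lower by the fit, at -3.73 (SE 0.57, adjusted p = 0.000335).

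The 2 members of the 14 that were not lower than in liver were SERPINF2, antiplasmin, and C6, a terminal complement component. SERPINF2 was at 163, 126, 91.8, 16.2 and 129 FPKM in kidney and 8.96 to 761 in liver, and the difference of -1.11 (SE 0.98, limma adjusted p = 0.35) did not pass. C6 was at 197, 40.6, 74.1, 6.94 and 190 FPKM in kidney and 20.7 to 500 in liver, with -1.78 (SE 0.96, adjusted p = 0.132). Without liver 3 both were called lower than in liver, at -2.16 and -2.60, and so was C6 with TMM factors, at -2.95. GC, the vitamin D-binding protein, and HRG were lower in level: GC was at 9.54, 0.364, 5.27, 0.173 and 19.0 FPKM and HRG at 12.1, 13.7, 14.3, 2.38 and 11.2 FPKM. GC overlapped lung, which reached 0.459, in kidneys 2 and 4, and its calls against heart, spleen and lung were lost without kidney 1 or kidney 5, at 1.5 to 1.84, and under both scalings. Against lung they were also lost without kidney 3, lung 1 or lung 2, at 1.92 to 1.98. APOE, by contrast, had kidney 4 as its highest kidney and did not differ by the test from lung (0.01, SE 0.48, adjusted p = 0.993) or spleen (0.74, SE 0.42, adjusted p = 0.154).

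**Figure D5:**
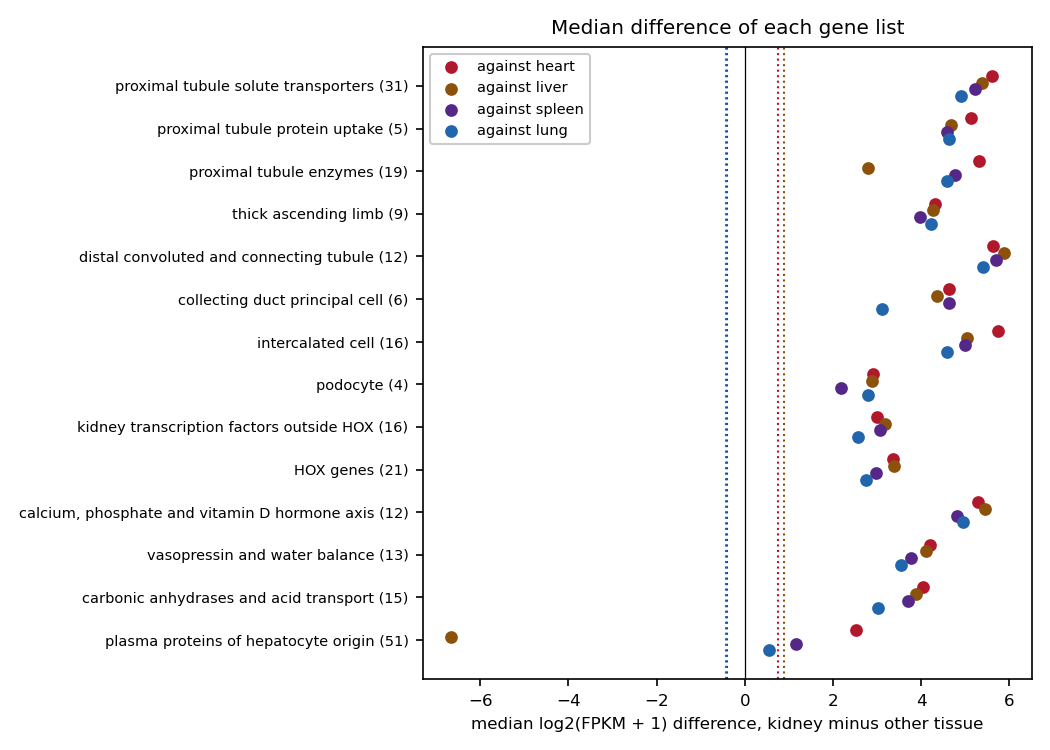
Median log2(FPKM + 1) difference, kidney minus another tissue, of 14 gene lists (rows, with the number of identified genes), with one point for each of the 4 tissues; dotted lines mark the medians of all genes tested, 0.76 for heart, 0.89 for liver, -0.41 for spleen and -0.43 for lung. Tubule lists lie right of these lines in each comparison, enzymes of the proximal tubule lie nearer to them against liver, at 2.80, and plasma proteins lie at -6.67 against liver.

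Other genes the study named for kidney came closer to spleen or lung. DEFB1, a defensin of epithelia, was at 1317, 3596, 5259, 585 and 3045 FPKM in kidney and 212 to 1592 in lung, so its lung difference of 1.63 (SE 0.61, limma adjusted p = 0.0438) was below the threshold of 2, and it became 2.1 (adjusted p = 0.00583) without kidney 4 and 2.12 (adjusted p = 0.0159) with TMM factors. CYBA, a subunit of the phagocyte oxidase, was at 1705, 1460, 1224, 201 and 1556 FPKM, and its lung difference of 1.91 became 2.48 without kidney 4. Its spleen difference of 1.43 then also passed the threshold of 2. The lung difference was likewise called without lung 1, at 2.05, and with TMM factors, at 2.40. MAL, a membrane protein of apical sorting, was at 628, 575, 845, 77.0 and 570 FPKM and was kidney-high, with 2.09 (SE 0.55, adjusted p = 0.00778) against lung, a call lost at 1.84 to 1.98 without any one of lung 1, lung 5, kidney 1, kidney 2, kidney 3 or kidney 5. Each of these 3 genes was lowest in kidney 4.

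Some named genes outside the lists were also far higher in kidney than in most other tissues, and TMEM252 and GBA3 were among the 10 with the widest margin over every tissue. TMEM252, a membrane protein, had 216, 277, 569, 85.2 and 308 FPKM and at most 1.07 elsewhere. GBA3, a cytosolic beta-glucosidase, was at 201, 184, 306, 56.5 and 384 FPKM and at most 0.532 elsewhere. CCK, the precursor of cholecystokinin, was at 1970, 1451, 1836, 176 and 2426 FPKM. CCK was near 0 in heart, liver and lung, at most 2.56, but spleen had 159 to 412, which kidney 4 overlapped and the other 4 kidneys did not. The kidney cadherin CDH16 was at 842, 559, 480, 53.3 and 507 FPKM, with its highest other value of 36.7 in liver 1.

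Among genes lower in kidney were the cell type markers of each other tissue. Cardiomyocyte markers were lower than in heart in 21 of 21 cases, hepatocyte markers lower than in liver in 18 of 19, lung epithelium markers lower than in lung in 13 of 14, B and plasma cell markers lower than in spleen in 16 of 16, and T and NK cell markers in 15 of 17, with the same counts without kidney 4. These marker names come from the same list of tissue DEGs. Of 10 erythroid markers only 4 were identified, and 2 were higher than in heart and 2 lower. Against liver 2 were higher, against spleen 2 and against lung 1 (2 without kidney 4). The erythroid list includes SLC4A1. Its medians in kidney 3 and kidney 4, 0.14 and -2.64, equalled those of the carbonic anhydrase and acid transporter list. The erythroid calls are therefore not a measure of red cells alone. TNNC1, cardiac troponin C, differed from heart by -12.54 (SE 0.53), with kidney values of 0, 0.475, 5.03, 3.68 and 10.7 FPKM against 18811 to 26040. SFTPC, surfactant protein C, was at 0.851 to 9.28 FPKM in kidney and 11570 to 40781 in lung. CD5L, a macrophage protein, was at 0.177 to 0.486 FPKM in kidney and 1127 to 1624 in spleen, a difference of -9.99 (SE 0.19, limma adjusted p = 3.23e-12).

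Some lung epithelium markers were measured in kidney as well. FOXJ1, the factor for motile cilia, was at 82.7, 23.3, 24, 1.77 and 33.5 FPKM in kidney and 1.33 to 107 in lung, and the difference of -0.58 (SE 1.03, limma adjusted p = 0.665) did not pass. NAPSA, an aspartic protease of alveolar and renal tubule cells, was at 113, 54.4, 60.4, 13.3 and 163 FPKM in kidney and 232 to 1099 in lung. It exceeded heart and liver by 4.58 (SE 0.52) and 4.53 (SE 0.56). CXCL17, a mucosal chemokine, was at 44.7, 32.6, 35.1, 8.81 and 57.6 FPKM and also exceeded heart, liver and spleen. Surfactant genes were lower in kidney, SFTPC at most 9.28 FPKM and SFTPB at most 1.48. SFTPC was highest in kidney 5, as were NAPSA and CXCL17, while FOXJ1 was highest in kidney 1. The source of these transcripts in kidney was not tested.

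One gene of 15185 (0.00659%) was lower in kidney than in each other tissue, an Ensembl gene with no name here (ENSAMEG00000016068). It was at 8.35, 28.9, 1.48, 54.5 and 5.12 FPKM in kidney, highest in kidney 4. The other tissues had 455 to 1197 FPKM in heart, 93.5 to 294 in liver, 44.8 to 167 in spleen and 31.6 to 126 in lung. Kidney 4 overlapped spleen and lung for this gene, and kidneys 1, 2, 3 and 5 did not overlap any tissue. Its differences were -5.96, -3.86, -3.12 and -2.63 against heart, liver, spleen and lung, with limma adjusted p of 1.04e-05, 0.00116, 0.0027 and 0.00805. With TMM factors the lung difference was -2.07 (adjusted p = 0.0573) and not called. That scaling still gave 1 gene lower than in each other tissue, which was therefore another gene. In pandas 3 to 5 only, ENSAMEG00000016068 lost its spleen and lung calls (limma adjusted p = 0.0622 and 0.1).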

How the data were processed

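RNA of 25 tissue pieces (5 tissues of 5 pandas) was sequenced as paired reads. The authors aligned them to the ailMel1 genome with HISAT2, added assembled transcripts and counted reads with HTSeq, and the deposited values are FPKM per gene. Strand use is not given in the sources used here. Steps between values gave back whole reads (tolerance 0.05) for 24206 of 24207 genes above 0, and 13149580 to 21383380 reads per library. A library was grouped by its labelled tissue, and no library was dropped.

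Kidney was compared with one tissue at a time by limma (3.58.1, R 4.3.3) with a variance trend on log2(FPKM + 1), two-sided, without the animal as a term, among genes with a mean above 1 FPKM in either tissue. The scripts were tested on simulated data. Same-numbered libraries come from one animal. Deviations from the tissue means correlated at 0.0929 to 0.496 between kidney and other libraries of one animal. The alternatives were quantile normalization, TMM factors, another pseudocount (0.1), other filters, a replicate block, one fit of all libraries, pandas 3 to 5 only, limma-voom on recovered reads, and leaving out each library. Libraries of one tissue shared at most 2.01% identical values. P-values measure the spread between single libraries of pandas that differ in age and disease. With 1 library per panda and tissue, this spread also holds differences between pieces and between library preparations.

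Genes were named from the name pairs in the study's list of tissue DEGs (8 names that could not be read safely were left out). Named were the 3 marker genes, genes the study named for kidney, members of gene and marker lists, the 10 with the widest margin over all tissues, the 5 most changed per comparison and direction, and up to 5 per kidney library that set it apart. ENSAMEG00000016068 falls outside this rule and was chosen after its values were seen. Members and lists were chosen with earlier results of these data known. Some genes of the lists are counted but not reported here by name. No coordinates or sequences were used here.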

Additional observations from a re-analysis of the deposited data

Results flagged for a closer look

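In 9 of 79 genes given per kidney library, the gap between one kidney and the nearest of the others exceeded 0.71 of the range over the 5 kidneys. Chance flags about 1 in 20 independent groups, but that rate cannot be set beside this count. Some of these genes were picked because a kidney library stood apart, and all of them share the same 5 kidney libraries. Kidney 4 was high for APOE (12018 FPKM, others 1819 to 3916), SERPINA3 (434, others 1.52 to 77.6) and CA4 (368, others 167 to 224). It was low for HRG (2.38, others 11.2 to 14.3) and SLC5A12 (54.5, others 265 to 341). Kidney 2 was high for BHMT (564, others 82.0 to 140) and DES (91.7, others 1.52 to 9.62). ABCC2 was high in kidney 3 (23.6, others 1.45 to 6.95) and SFTPC in kidney 5 (9.28, others 0.851 to 2.16).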

How the results depend on the processing

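DEG totals rose with a pseudocount of 0.1 to 4256 (heart), 4572 (liver), 4153 (spleen) and 3719 (lung), and by limma-voom on recovered reads to 4393, 4799, 4269 and 3814. The liver total fell to 1446 under quantile normalization. Genes higher than in each other tissue numbered 621 with a pseudocount of 0.1, 596 by limma-voom, and 211 in pandas 3 to 5 only, where 209 were among the 363. Genes lower than in each numbered 2 under quantile normalization and 0 in pandas 3 to 5 only by limma (1 at an unadjusted p under 0.05, and 1 by limma-voom on all 5 pandas). With the replicate block, 361 genes were higher than in each, 358 of them among the 363, and DEG totals stayed within 1.5 times. Each of the 265 differences of named genes kept its call with the block. Leaving out one library gave totals of 2269 to 2817 (heart), 1925 to 2600 (liver), 2322 to 2714 (spleen) and 1964 to 2399 (lung), and 313 to 498 genes higher than in each, with 1 lower each time. APOE against lung (0.01) turned to -0.53 under quantile normalization and ran from -0.41, without kidney 4, to 0.27 when a single library was left out. FOXJ1 against lung (-0.58) ran from -1.53, without lung 4, to 0.16, without kidney 4. None of these passed the test. In pandas 3 to 5 only, 37 of the 265 lost their call. That fit had fewer samples and kept kidney 4, and the cause of the lost calls was not tested. Low values limit what can be seen: 3 reads of a 1 kb gene are 0.173 to 0.215 FPKM in the kidneys.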
